A study of Mus musculus with 18 samples.

Results

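The genes described are 7 G protein coupled receptors for metabolites and free fatty acids, Hcar1, Hcar2, Ffar2, Ffar3, Ffar4, Gpr84 and Sucnr1. They were chosen by name, and each is read by 1 probe set that names that gene alone. They are 7 of the 19938 genes with a probe set of their own on the array. Expression was measured on 18 Affymetrix Mouse Gene 1.0 ST arrays in fat cells of male C57BL/6J mice aged 6, 14 or 18 months, with 3 arrays for each of 6 groups. Bone marrow adipocytes were flushed from femurs and tibias and collected by flotation. Epididymal adipocytes, which the sample labels call peripheral, were floated after collagenase digestion of the fat pad. The mice ate standard chow, received no treatment and carried no altered allele. Each group drew on 6 to 10 animals, whose RNA was combined into 3 pooled preparations, and both depots came from the same mice. The p values therefore measure the spread between pools and not between animals. Red cells were lysed in the bone marrow suspension before flotation, a step not described for the fat pad, and no cell sorting is described for either depot.

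These receptors let a cell sense fuels and by-products of metabolism outside it. Hcar1 binds lactate and Hcar2 binds the ketone body beta-hydroxybutyrate and the drug niacin. Both couple to inhibitory G proteins, which lower cAMP and so restrain lipolysis in fat cells. Ffar2 and Ffar3 respond to short-chain fatty acids such as acetate and propionate, Gpr84 to medium-chain fatty acids and Ffar4 to long-chain unsaturated fatty acids. Sucnr1 responds to succinate, an intermediate of the citric acid cycle. Hcar2, Ffar2 and Gpr84 are also well known from neutrophils and macrophages.

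The identity of the preparations bears on every difference between depots. All 13 mature adipocyte markers measured were lower in bone marrow, and their summed level on the linear scale was 2881 to 3632 there against 65833 to 87601 in epididymal arrays. Of the defining markers, Lep, the gene of leptin, had a mean log2 value of 4.05 to 5.04 in the bone marrow groups, near the array's background, while Adipoq, the gene of adiponectin, stood at 6.91 to 8.08. All 14 neutrophil markers were higher in bone marrow, with a summed level of 53942 to 74002 against 835 to 10978. S100a8, a calcium-binding protein abundant in neutrophils, had group means of 12.47 to 12.76 in bone marrow and 5.45 to 7.62 in epididymal fat. The highest of those epididymal sums belonged to replicate 1 at 6 months, where the other arrays of the group had 983 and 835. Among 14 macrophage and monocyte markers 10 were higher and 1 lower in bone marrow. In such bulk RNA, fewer cells of a type and less RNA per cell cannot be told apart. By microscopy, the authors reported a similar share of cells positive for CD11b, which they used as a monocyte and macrophage marker, in both preparations. They also reported perilipin staining in both, stronger in epididymal adipocytes. Quantitative PCR by the authors gave higher levels of Fabp4, Plin1, Plin2, Lep, Adipoq and Cebpb in floated than in non-floating bone marrow cells. Of these genes, all except Cebpb were lower there than in epididymal adipocytes.

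The deposited values are log2 intensities without a detection call. As a gauge of background, 1035 probe sets of olfactory receptors, genes seldom used outside the nose, had a median of 3.51 and a 95th percentile of 5.00. Hcar2 and Ffar2 were above that 95th percentile on 18 of 18 arrays, Gpr84 on 14, Hcar1 on 13, Ffar4 on 12 and Sucnr1 on 9. Ffar3 was above it on 0 of 18 arrays. The size of a fold against values near this gauge is uncertain.

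Promoter windows of the 4 receptors lower in bone marrow, Hcar1, Ffar2, Ffar4 and Sucnr1, are printed with that of Gpr84, which differed the other way. RefSeq (GRCm38.p6) windows of 250 bases before to 50 bases after the start site were matched for 6 of the 7 genes, 9 windows in all. They are written 5′ to 3′ on the strand of the gene, and capitals mark a match to 1 of 8 motifs searched on both strands. Ffar2 has 4 windows, 1 for each start site in the table, and that of the most upstream start is shown. Hcar1 lies on the minus strand at chr5:123879954-123880253, Ffar2 on the minus strand at chr7:30823726-30824025, Ffar4 on the plus strand at chr19:38096829-38097128, Sucnr1 on the plus strand at chr3:60081619-60081918 and Gpr84 on the minus strand at chr15:103310389-103310688.
Hcar1: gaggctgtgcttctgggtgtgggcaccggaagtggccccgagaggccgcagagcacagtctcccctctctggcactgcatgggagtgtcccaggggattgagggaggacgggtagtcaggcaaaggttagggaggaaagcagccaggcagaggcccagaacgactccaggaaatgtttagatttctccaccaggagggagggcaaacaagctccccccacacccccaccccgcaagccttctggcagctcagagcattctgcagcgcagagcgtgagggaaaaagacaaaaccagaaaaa
Ffar2: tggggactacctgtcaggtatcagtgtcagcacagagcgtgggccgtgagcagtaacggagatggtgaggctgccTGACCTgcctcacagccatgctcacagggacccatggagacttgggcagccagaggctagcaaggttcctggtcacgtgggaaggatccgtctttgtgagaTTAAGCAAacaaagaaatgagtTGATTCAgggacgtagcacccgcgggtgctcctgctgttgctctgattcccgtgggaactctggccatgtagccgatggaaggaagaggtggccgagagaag
Ffar4: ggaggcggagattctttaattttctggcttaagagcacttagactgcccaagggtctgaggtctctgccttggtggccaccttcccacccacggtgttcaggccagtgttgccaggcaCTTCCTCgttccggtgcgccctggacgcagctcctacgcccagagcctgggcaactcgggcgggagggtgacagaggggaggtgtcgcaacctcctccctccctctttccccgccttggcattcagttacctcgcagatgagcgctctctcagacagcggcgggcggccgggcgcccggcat
Sucnr1: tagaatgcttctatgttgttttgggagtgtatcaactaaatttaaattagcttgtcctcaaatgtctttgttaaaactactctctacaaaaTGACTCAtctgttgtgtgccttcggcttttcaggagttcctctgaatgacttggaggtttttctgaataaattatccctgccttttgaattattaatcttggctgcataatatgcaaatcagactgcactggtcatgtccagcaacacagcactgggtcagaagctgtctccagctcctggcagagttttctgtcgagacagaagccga
Gpr84: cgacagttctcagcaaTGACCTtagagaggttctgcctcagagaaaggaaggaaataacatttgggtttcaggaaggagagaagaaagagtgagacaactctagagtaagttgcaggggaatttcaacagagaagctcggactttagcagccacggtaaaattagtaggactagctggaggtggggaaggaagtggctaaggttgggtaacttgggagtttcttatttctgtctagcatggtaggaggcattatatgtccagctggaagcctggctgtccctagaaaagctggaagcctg
The motifs were chosen with the sequences in view. The Sucnr1 window holds the AP-1 motif TGANTCA at position -159 from the start site, which occurs in 7.81% of 32851 windows of the same length. Ffar4 holds GAGGAAG, a motif of ETS factors and PU.1, on its other strand at position -132 (13.6% of windows). Gpr84 holds AGGTCA, a nuclear receptor motif, on its other strand at position -234 (16.3%). In the Hcar1 window none of these letters was found, nor were the C/EBP motif TTGCNNAA (10.8%), the cAMP response element TGACGTCA (1.79%), the NF-kB motif (1.2%), TATAAA (13.6%) or the direct repeat of AGGTCA with 1 base between, read by PPAR and RXR (0.0396%), which overlaps AGGTCA. The Ffar2 window holds 3 motifs, AGGTCA on its other strand at position -175, TTGCNNAA on its other strand at -74 and TGANTCA at -52. Its other windows, which overlap in part, also hold TTGCNNAA, and 2 of them hold AGGTCA. Ffar2 thus has the AP-1 letters in common with Sucnr1 and AGGTCA in common with Gpr84, and no motif was found in all 4 receptors lower in bone marrow. A gene with 4 windows has more places for a match than a gene with 1.

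Between depots, Hcar1, Ffar2, Ffar4 and Sucnr1 were lower in bone marrow, Hcar2 and Gpr84 were higher, and Ffar3 passed no test. Over the 3 ages, 4 of the 7 receptors were called lower in bone marrow, where 11.6% of the 23410 probe sets tested were, and 2 were called higher, where 10.2% were. A call between depots required a Benjamini-Hochberg adjusted p under 0.05 in limma and a 2-fold difference. The difference of the median probe set was -0.02 on the log2 scale. The same 4 and 2 genes were called in those directions at each age. The backgrounds were 11.8% lower and 11.4% higher at 6 months, 11.5% and 9.91% at 14 months, and 12.9% and 10.9% at 18 months.

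**Figure D1:**
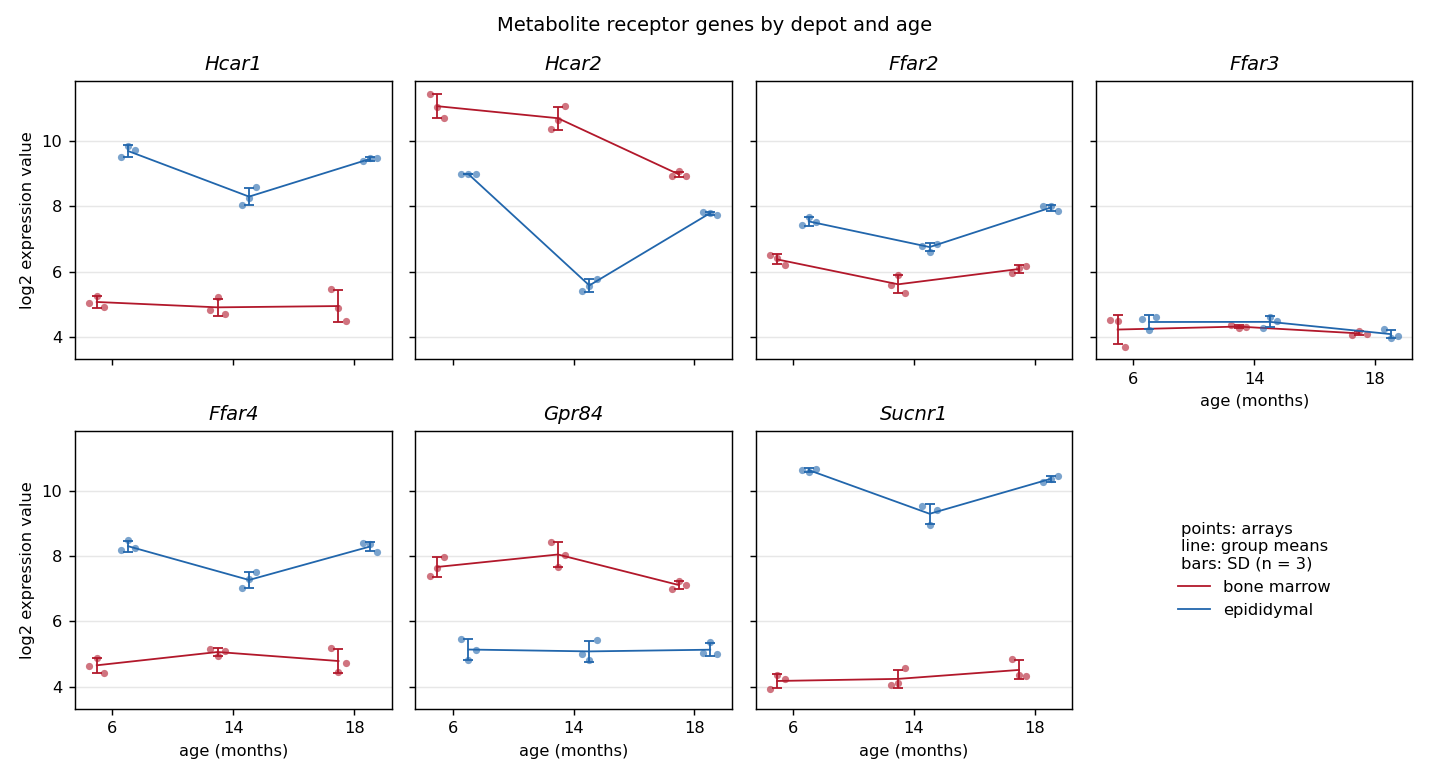
Log2 expression value (vertical axis) of each receptor gene against age in months, with points for the 18 arrays, lines through the group means and bars for the SD of 3 arrays, bone marrow in red and epididymal in blue. The depots are apart over all arrays for Hcar1, Ffar2, Ffar4, Gpr84 and Sucnr1, with the smallest gap for Ffar2. How many of all probe sets separate in this way was not counted. Hcar2 is higher in bone marrow at each age and dips to 5.58 in epididymal adipocytes at 14 months. Ffar3 stays below 5.00 on every array.

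Hcar1, the lactate receptor, was higher in epididymal adipocytes. Its log2 values in bone marrow were 5.05, 5.26 and 4.91 at 6 months, 4.82, 5.21 and 4.69 at 14 months, and 5.47, 4.88 and 4.49 at 18 months. The epididymal arrays gave 9.51, 9.85 and 9.73 at 6 months, 8.05, 8.26 and 8.59 at 14 months, and 9.38, 9.49 and 9.50 at 18 months. Every epididymal array was above every bone marrow array, and within the epididymal depot the 14-month arrays were the lowest. Bone marrow minus epididymal was -4.62 at 6 months (SE 0.201, limma adjusted p = 5.88e-13), -3.39 at 14 months (adjusted p = 4.98e-11) and -4.50 at 18 months (adjusted p = 6.88e-13). Over the ages this was an 18.0-fold difference. The 3 bone marrow groups overlapped in their ranges, close to the background gauge.

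Hcar2, the receptor for beta-hydroxybutyrate and niacin, is the chromosomal neighbour of Hcar1 on chromosome 5, with no other coding gene between them, and differed in the opposite direction. Log2 values of Hcar2 in bone marrow were 11.45, 11.05 and 10.70 at 6 months, 10.38, 10.64 and 11.08 at 14 months, and 8.93, 9.07 and 8.94 at 18 months. Its epididymal values were 8.98, 8.99 and 8.99 at 6 months, 5.40, 5.56 and 5.78 at 14 months, and 7.84, 7.80 and 7.75 at 18 months. At each age the bone marrow arrays were all higher. Across ages the depots overlapped, since bone marrow at 18 months and epididymal fat at 6 months had nearly the same values. The depot difference was 2.08 at 6 months (SE 0.172, adjusted p = 4.68e-09), 5.12 at 14 months (adjusted p = 1.84e-14) and 1.18 at 18 months (adjusted p = 8.77e-06). With arrays scaled to equal ribosomal protein genes, the 18-month difference was 0.45 and no longer reached 2-fold. The 14-month difference was a 34.8-fold one, against 4.24-fold at 6 months and 2.27-fold at 18 months.

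Ffar2, a receptor for acetate and propionate, was lower in bone marrow by a smaller margin. Its bone marrow values were 6.51, 6.42 and 6.21 at 6 months, 5.60, 5.90 and 5.35 at 14 months, and 5.95, 6.13 and 6.17 at 18 months. Its epididymal values were 7.42, 7.67 and 7.54 at 6 months, 6.79, 6.62 and 6.86 at 14 months, and 8.01, 8.02 and 7.86 at 18 months. The depots did not overlap, although the lowest epididymal array was only 0.11 above the highest bone marrow one. The difference was -1.16 at 6 months (SE 0.135, adjusted p = 4.86e-07), -1.14 at 14 months (adjusted p = 7.04e-07) and -1.88 at 18 months (adjusted p = 5.41e-10).

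Ffar3, the other receptor for short-chain fatty acids and the neighbour of Ffar2 on chromosome 7, stayed within the range of the olfactory gauge. It read 4.51, 4.48 and 3.71 in bone marrow at 6 months, 4.36, 4.29 and 4.31 at 14 months, and 4.07, 4.18 and 4.08 at 18 months. The epididymal readings were 4.56, 4.22 and 4.60, then 4.29, 4.61 and 4.50, then 4.24, 3.99 and 4.05 at the same ages. All 6 groups overlapped with their neighbours in the order of means. The depot difference over the ages was -0.12 (95% interval -0.32 to 0.09, adjusted p = 0.331), for a probe set at background level. Scaling the arrays to equal ribosomal protein genes moved the median probe set by -0.75 between depots and put Ffar3 at -1.15 at 6 months, past both limits of the call.

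Ffar4, the receptor for long-chain unsaturated fatty acids, resembled Hcar1 in its pattern. Bone marrow arrays of Ffar4 gave 4.64, 4.88 and 4.43 at 6 months, 5.15, 4.92 and 5.10 at 14 months, and 5.19, 4.45 and 4.71 at 18 months. The corresponding epididymal arrays gave 8.17, 8.49 and 8.23, then 7.003, 7.29 and 7.49, then 8.39, 8.35 and 8.12. The depots did not overlap, the epididymal groups of 6 and 18 months overlapped with each other, and the 14-month group lay below them. The difference between depots was -3.65 at 6 months (SE 0.173, adjusted p = 2e-12), -2.20 at 14 months (adjusted p = 2.67e-09) and -3.50 at 18 months (adjusted p = 2.85e-12).

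Gpr84, the medium-chain fatty acid receptor, was higher in bone marrow. Its values there were 7.38, 7.62 and 7.98 at 6 months, 8.44, 7.65 and 8.04 at 14 months, and 6.98, 7.24 and 7.10 at 18 months. Epididymal adipocytes gave 5.47, 4.83 and 5.10 at 6 months, 4.98, 4.81 and 5.44 at 14 months, and 5.03, 5.35 and 5.00 at 18 months. No epididymal array reached the lowest bone marrow array, and the 3 epididymal groups overlapped near the background gauge. Bone marrow exceeded epididymal by 2.53 at 6 months (SE 0.211, adjusted p = 5.46e-09), 2.97 at 14 months (adjusted p = 6.67e-10) and 1.98 at 18 months (adjusted p = 1.55e-07). Neutrophil and macrophage markers were also higher in bone marrow, as given above, and their part in the Gpr84 and Hcar2 differences was not tested.

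Sucnr1, the succinate receptor, was lower in bone marrow, and its difference over the ages was the largest of the 7. At 14 months that of Hcar2 (5.12) was slightly larger in size than that of Sucnr1 (-5.05). In bone marrow it stood at 3.93, 4.34 and 4.24 at 6 months, 4.04, 4.11 and 4.56 at 14 months, and 4.85, 4.36 and 4.32 at 18 months. In epididymal adipocytes it stood at 10.64, 10.56 and 10.67 at 6 months, 9.52, 8.94 and 9.41 at 14 months, and 10.27, 10.35 and 10.45 at 18 months. No bone marrow array passed the background gauge and every epididymal array did. The log2 difference was -6.46 at 6 months (SE 0.173, adjusted p = 1.02e-15), -5.05 at 14 months (adjusted p = 2.19e-14) and -5.85 at 18 months (adjusted p = 2.6e-15). Over the ages this was a 55.2-fold difference, against a bone marrow signal at background level. The 4 receptors lower in bone marrow moved with the 13 adipocyte markers, all lower there, and the part of adipocyte content in their differences was not tested.

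**Figure D2:**
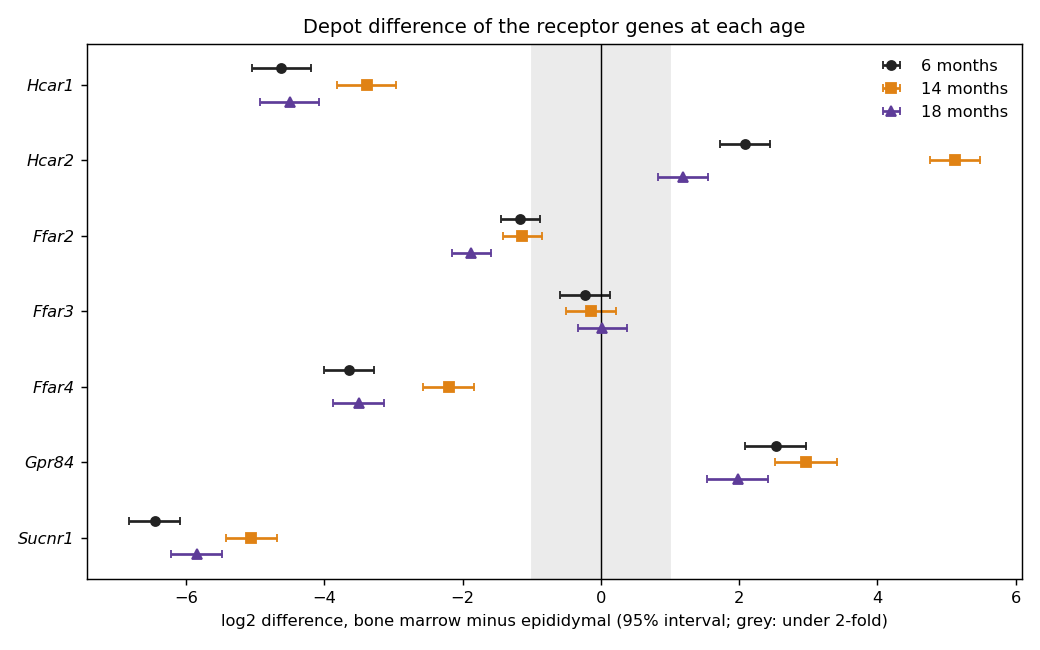
Log2 difference between depots (horizontal axis, bone marrow minus epididymal) for each receptor gene at 6, 14 and 18 months, with 95% intervals and a grey band for differences under 2-fold. Hcar2 ranges from 1.18 to 5.12 across ages, Sucnr1 lies between -6.46 and -5.05, and the Ffar3 intervals include 0 at each age.

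With age, most of the receptors dipped at 14 months in the epididymal depot and rose again by 18 months, Hcar2 only in part. From 6 to 14 months, 5 of the 7 receptors fell, against 7.51% of all probe sets tested that fell, and 0 rose (10.2% rose). Hcar2 fell by 3.41 (SE 0.172, adjusted p = 1.64e-10), a 10.6-fold drop. Hcar1 fell by 1.40 (SE 0.201, adjusted p = 5.58e-05) and Sucnr1 fell by 1.34 (SE 0.173, adjusted p = 1.68e-05). Ffar4 fell by 1.03 (SE 0.173, adjusted p = 0.00027) and Ffar2 fell by 0.79 (SE 0.135, adjusted p = 0.000335). In each of these 5 genes every 14-month epididymal array was below every epididymal array of the other ages. The share of all probe sets that separate in this way was not counted. Gpr84 (-0.06, adjusted p = 0.897) and Ffar3 (0.00, adjusted p = 0.991) did not pass the test. Without epididymal replicate 1 at 6 months, the array with the high neutrophil sum, the same 5 genes were called, and Hcar2 fell by 3.41 again.

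From 14 to 18 months the same 5 genes rose in epididymal adipocytes, where 11.7% of probe sets rose, and 0 fell, where 12.5% did. Hcar2 rose by 2.22 (SE 0.172, adjusted p = 1.87e-08), Ffar2 by 1.21 (SE 0.135, adjusted p = 1.98e-06), Hcar1 by 1.15 (SE 0.201, adjusted p = 0.000265), Sucnr1 by 1.07 (SE 0.173) and Ffar4 by 1.02 (SE 0.173, adjusted p = 0.000203). This comparison and the preceding one share the 14-month arrays, so they are not independent. Against 6 months, the 18-month arrays differed in 2 receptors. Hcar2 was lower by 1.19 on the log2 scale (SE 0.172, adjusted p = 0.000113), where 8.01% of probe sets fell. Ffar2 was higher by 0.42 (SE 0.135, adjusted p = 0.0398), where 8.22% rose, but the call was lost without epididymal replicate 1 or 3 at 6 months or any of the 3 at 18 months (adjusted p up to 0.129). Ffar3 (-0.37, adjusted p = 0.153), at background level, did not pass the test, although it did without bone marrow replicate 3 at 6 months (adjusted p = 0.0378), an array that enters the shared error alone. Hcar1 (-0.24), Sucnr1 (-0.27), Ffar4 (-0.01) and Gpr84 (-0.01) did not pass either.

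In bone marrow fewer receptors changed. From 6 to 14 months only Ffar2 was called, with a fall of 0.76 (SE 0.135, adjusted p = 0.00161), against 3.58% of probe sets that fell, and 0 rose (5.08% of probe sets). Fitted on those 2 groups alone, its adjusted p was 0.0820. A fall of Hcar2 over that span was not called, but it passed with 1 array left out (limma adjusted p = 0.0397). From 6 to 18 months only Hcar2 was called, lower by 2.09 on the log2 scale (SE 0.172, adjusted p = 4.15e-06), a 4.25-fold fall, where 5.13% of probe sets fell, and 0 rose (3.37%). All 3 arrays of Hcar2 at 18 months were below all 6 of the younger bone marrow arrays. From 14 to 18 months Hcar2 fell by 1.72 (SE 0.172, adjusted p = 8.6e-06) and Gpr84 by 0.93 (SE 0.211, adjusted p = 0.00586), where 8.23% of probe sets fell. Ffar2 rose by 0.47 over that span (SE 0.135, adjusted p = 0.0260), where 4.75% rose, but the call was lost without replicate 1 or 3 at 14 months or replicate 2 or 3 at 18 months (adjusted p up to 0.160). Hcar1, Ffar3, Ffar4 and Sucnr1 passed no age test in bone marrow, where they were dim.

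**Figure D3:**
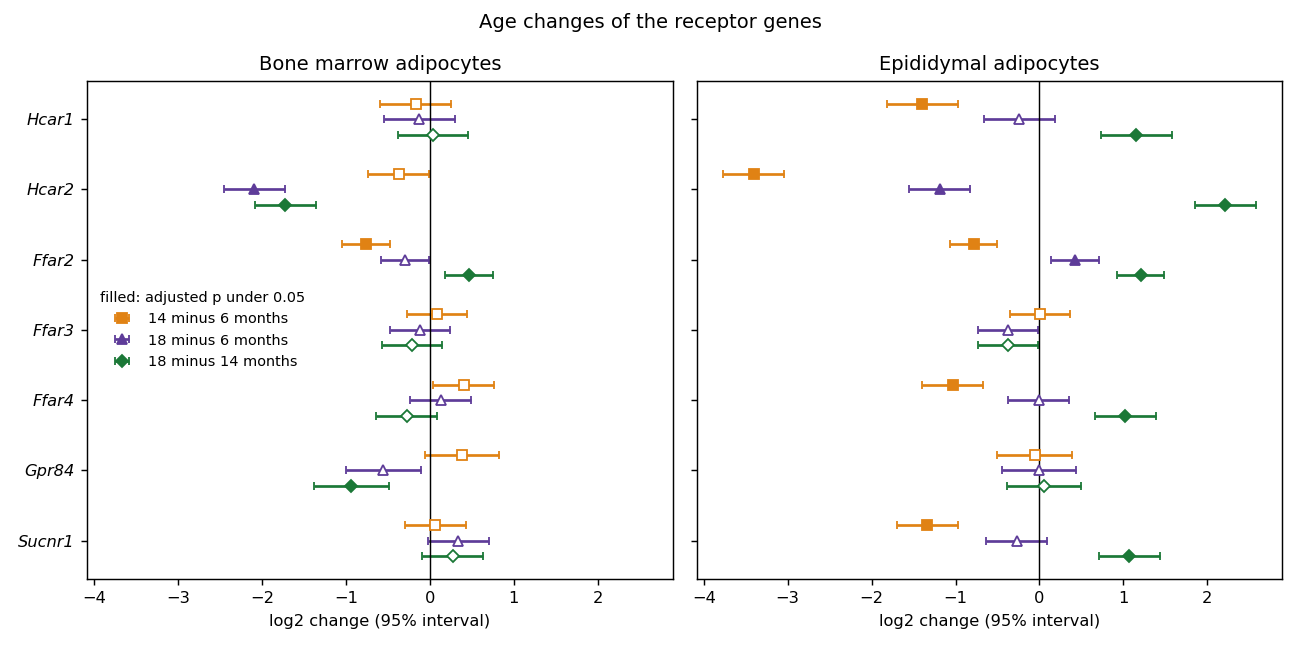
Log2 change with age (horizontal axis, with 95% intervals) for each receptor gene in bone marrow (left) and epididymal adipocytes (right), for 14 minus 6, 18 minus 6 and 18 minus 14 months, with filled symbols where the limma adjusted p was under 0.05. In the right panel 5 genes fall at 14 months and rise again by 18 months, and in the left panel Hcar2 falls by 2.09 at 18 months.

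The difference between depots in the change with age was itself tested. For 14 minus 6 months, the change was higher in bone marrow than in epididymal adipocytes for Hcar2 by 3.04 (SE 0.244, adjusted p = 1.27e-07), Ffar4 by 1.44 (SE 0.245, adjusted p = 0.000533), Sucnr1 by 1.40 (SE 0.245) and Hcar1 by 1.23 (SE 0.284, adjusted p = 0.00697). This was 4 of 7, against 5.07% of probe sets higher, and 0 were lower (6.53%). Hcar1, Ffar4 and Sucnr1 lay near the background gauge in bone marrow, where a fall could hardly register. For these genes the difference therefore largely restates the epididymal change, here and from 14 to 18 months. Ffar2 fell in both depots, and its difference of changes was 0.02 (95% interval -0.38 to 0.42). For 18 minus 14 months 6 of the 7 were called in the other direction, against 8.06% of probe sets (7.74% were higher), with Hcar2 the furthest at -3.93 (SE 0.244, adjusted p = 4.19e-09). With single arrays left out this count was 4 to 6, and the calls lost were those of Gpr84 and Sucnr1. For 18 minus 6 months only Hcar2 (-0.90, adjusted p = 0.0285) and Ffar2 (-0.71, adjusted p = 0.0262) were called lower, against 5.02%, and 0 higher, against 3.49%. The count was 0 to 2 with single arrays left out and 0 with arrays scaled to equal ribosomal protein genes.

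With the depot differences included, few genes varied across the arrays as Hcar2 did. Pearson correlations of log2 values over the 18 arrays are given as descriptions, since arrays share depot, age and pool. Hcar2 was most like Cxcl2, a neutrophil-attracting chemokine (r = 0.972), Ier3, an immediate early gene (0.957), and Rabgef1 (just above 0.95). Only 3 genes exceeded 0.95 with it, against 1130 genes with Hcar1, 1076 with Ffar4, 1264 with Sucnr1, 204 with Gpr84 and 22 with Ffar2. With each depot's mean subtracted, 2 genes exceeded 0.95 with Hcar2 and 0 with each other receptor matched, so Hcar2 no longer had the fewest. Hcar2 was then most like Jun, a subunit of AP-1 (0.957), Tiparp (0.951) and Cxcl2 (0.937). Hcar1 was then most like Acsm3 (0.907), Acot4 (0.901) and Optc (0.883), Ffar2 like Pmpcb (0.926), Cox19 (0.922) and Pdk4 (0.903), and Ffar4 like Fgf10 (0.934), Grb14 (0.933) and Cnr1 (0.878). Sucnr1 was most like Pex13 (0.945), Cop1 (0.941) and Atp6v1h (0.912), and Gpr84 like Erlin2 (0.844), Cask (0.821) and Ctsd (0.793). Before subtraction the closest genes were Prkd1 for Hcar1 (0.994), Grb14 for Ffar4 (0.996), Art3 for Sucnr1 (0.996), Mdm1 for Gpr84 (0.985) and Cox19 for Ffar2 (0.979). Ffar3 varied too little to be matched, with an SD of 0.24.

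Immediate early and inflammatory genes, which respond quickly to handling and to stimuli, fell in the epididymal depot with Hcar2. Of 14 immediate early genes 13 fell from 6 to 14 months, with a median change of -2.77, and of 15 inflammatory response genes 13 fell, with a median of -2.25, beside a median of -0.04 over all probe sets. The summed level of the immediate early genes there was 24929 to 26198 at 6 months, 3458 to 6016 at 14 months and 8585 to 8949 at 18 months, the order of ages of Hcar2 in that depot. Fos, a subunit of AP-1, had epididymal means of 10.56, 7.02 and 9.85 at the 3 ages, and Il1b, the gene of interleukin 1 beta, had 5.76, 4.59 and 4.65. In bone marrow the ranges of 6 and 14 months overlapped, for the immediate early sums as for Hcar2, and the lowest values were those of 18 months. The immediate early sums were 13009 to 32523 at 6 months, 23827 to 25725 at 14 months and 11421 to 13156 at 18 months, and at 6 months the array with the highest Hcar2 value had the lowest sum. The inflammatory sums in bone marrow were 22415 to 32458, 29431 to 35325 and 12903 to 15707 at those ages, and 8 of 15 inflammatory genes were called lower at 18 than at 6 months.

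Markers of several cell types also moved with age in epididymal adipocytes. Of 14 macrophage and monocyte markers 12 rose and 1 fell at 14 months, with a summed level of 14086 to 19175 against 3280 to 4657 at 6 months, and 10 were lower at 18 than at 6 months, with a sum of 1504 to 1606. Csf1r, the receptor for macrophage colony-stimulating factor, had means of 8.27, 10.47 and 6.49. All 10 fibroblast and progenitor markers rose at 14 months, among them Dcn, the matrix protein decorin, with means of 11.77, 13.22 and 11.50. Endothelial markers rose in 6 of 8, with sums of 4353 to 5060 at 14 months against 2238 to 2430 at 6 months and 1221 to 1284 at 18 months, and Pecam1, an endothelial adhesion molecule, had means of 8.79, 9.72 and 7.73. Also called higher at 14 than at 6 months were 6 of 9 B-lineage markers, 4 of 10 T and NK cell markers and 6 of 10 mast cell and eosinophil markers. The mature adipocyte sum was lowest at 14 months, at 65833 to 75177 against 80588 to 87601 at the other ages, with 1 of 13 markers called lower.

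In bone marrow the neutrophil sum was 53942 to 58186 at 18 months against 65708 to 74002 earlier, and 2 of 14 neutrophil markers were called lower at 18 than at 6 months. The erythroid sum was 26274 to 27045 at 18 months against 13013 to 18554 earlier, with 4 of 8 markers called higher at 18 than at 14 months and 1 higher than at 6 months. Macrophage and monocyte sums were 20448 to 23291 at 14 months against 15018 to 18799 at the other ages. B-lineage sums were 4794 to 6027 at 14 months against 2089 to 2894 at the other ages, and 7 of 9 of these markers rose from 6 to 14 months, with Cd79a, a part of the B cell receptor, at 8.99, 10.51 and 9.04. Endothelial markers were called lower in 5 of 8 at 14 and in 6 of 8 at 18 months against 6 months. The part of all these shifts, in either depot, in the receptor changes was not tested.

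**Figure D4:**
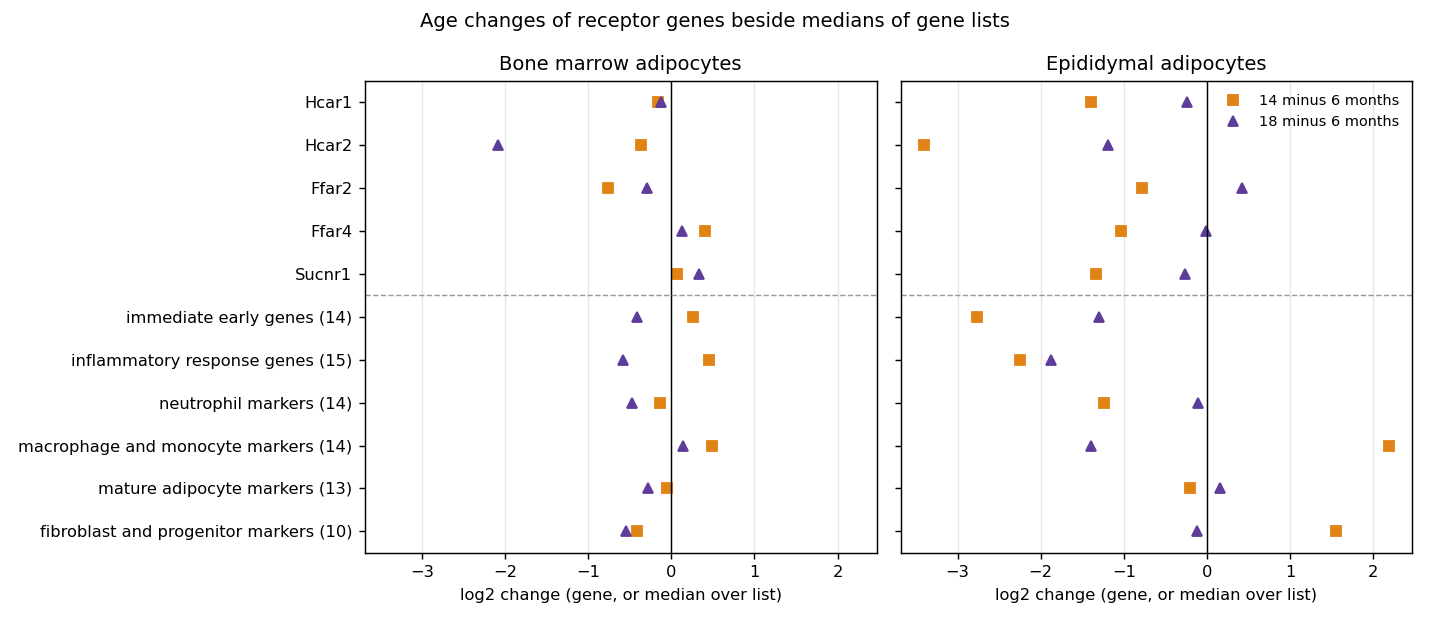
Log2 change from 6 months (horizontal axis) at 14 and 18 months for 5 receptor genes and, below the dashed line, the median over each marker list with its number of genes, in bone marrow (left) and epididymal adipocytes (right). At 14 months in the right panel Hcar2 (-3.41) lies beside the immediate early (-2.77) and inflammatory (-2.25) medians, while the macrophage median is at 2.19.

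A further list held 22 other receptors, mostly for metabolites, lipids and protons, but also Npy1r and the adrenergic receptor Adra2c. Of these 15 could be read, and Adora1 and Adra2a were among those that could not. In bone marrow 5 were higher and 1 lower over the ages. Gpr65, a proton sensor, was higher by 3.28 (SE 0.124), Gpr132 by 2.78 (SE 0.117), and Gpr183, an oxysterol receptor, by 1.94 (SE 0.108). Ptger3, a prostaglandin E2 receptor that couples to inhibitory G proteins, was lower at -4.36 (SE 0.124). The median of the 15 was 0.11. At 14 months in epididymal adipocytes 5 rose and 1 fell, with Npy1r, a neuropeptide Y receptor, up by 1.46 (SE 0.139) and Gpr183 up by 1.08 (SE 0.188).

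Downstream, 30 genes of G protein and cAMP signalling were split, with 5 higher and 9 lower in bone marrow and a median of -0.30. Gnai1, an inhibitory G protein subunit, was lower at -6.32 (SE 0.113), Adcy5, an adenylyl cyclase, at -4.11 (SE 0.0958) and Pde3b, the phosphodiesterase by which insulin lowers cAMP in fat cells, at -3.03 (SE 0.128). Arrb2, a beta-arrestin that binds activated receptors, was higher by 2.81 (SE 0.125). In epididymal adipocytes from 6 to 14 months 8 of the 30 rose and 5 fell, with Adcy7 up by 1.56 (SE 0.156) and Adcy5 down at -1.33 (SE 0.166). For the list of lipolysis machinery, a process that Hcar1 and Hcar2 restrain, the median difference was -4.64, and 11 of 12 genes were called lower in bone marrow. Cidec (-7.47, SE 0.113) and Plin1 (-6.64, SE 0.132), both lipid droplet proteins, Aqp7 (-6.53, SE 0.131), a glycerol channel, and Plin4 (-6.11, SE 0.086) led the list, which shares members with the adipocyte markers. At 14 months in epididymal adipocytes 3 of the 12 fell, Abhd5 the most (-0.97, SE 0.145), and the list median was -0.24.

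The enzymes and transporters of the ligands were also read. Of 12 genes of lactate production and transport 5 were lower and 1 higher in bone marrow, with a median of -0.72. Pdk4, which holds pyruvate back from oxidation, was lower at -4.60 (SE 0.101), and Slc16a3, the lactate exporter MCT4, was higher by 4.15 (SE 0.119). At 14 months in epididymal adipocytes 5 of the 12 fell, with Pdk4 at -1.84 (SE 0.176) and Hk2, a hexokinase, at -1.57 (SE 0.26). Of 4 ketone body genes, Oxct1 (-2.53, SE 0.0834) and Acat1 (-2.31, SE 0.0746), which serve ketone body use, were lower in bone marrow, where Hcar2 was higher. In succinate metabolism 6 of 12 genes were lower and 1 higher in bone marrow, with a median of -1.03. Acod1, whose product itaconate inhibits succinate dehydrogenase, was higher by 5.74 (SE 0.118), while Slc25a10, the mitochondrial dicarboxylate carrier, was lower at -3.68 (SE 0.0716) and Sdha, a subunit of succinate dehydrogenase, at -1.82 (SE 0.08). From 6 to 14 months in epididymal adipocytes 5 of these 12 fell and 1 rose, and Acod1 fell by 0.93 (SE 0.204) and Suclg1 by 0.79 (SE 0.141). Over the 6 pathway lists together 15 genes rose and 20 fell in that comparison, or 7 and 34 with arrays scaled to equal ribosomal protein genes, which moved the median probe set by -0.26.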

How the data were processed

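RNA of 18 pooled preparations was hybridised to Mouse Gene 1.0 ST arrays. The authors describe background correction by gcRMA and quantile normalization in Partek, while the legend of their supplementary figure names RMA. The deposited unit is log2 intensity per probe set. The deposited arrays do not share the same distribution, with array medians from 5.33 to 5.65. No further scaling was applied here. Such correction can change low values the most. The table holds 35556 probe sets, of which 23410 name a gene and were tested and 1621 of those name several genes. The number of arrays limits the precision.

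A linear model with a mean for each of 6 groups was fitted with limma 3.58.1 in R 4.3.3, with the Benjamini-Hochberg adjustment over all tested probe sets of a contrast. Calls required an adjusted p under 0.05, and between depots also 2-fold. Where a gene had several probe sets, that with the highest mean was used. The fit was tested on simulated data. Receptors, gene lists and tests were chosen with earlier results of these data known, and lists are given by counts and medians without a test. Genes named are all 7 receptors, and of each list those with the largest called changes. Defining markers are named for the adipocyte, neutrophil, macrophage, fibroblast, endothelial, B-lineage, immediate early and inflammatory lists. For receptors with an SD of at least 0.4, the 3 genes of highest correlation are named. Promoter windows came from RefSeq (GRCm38.p6). Alternatives changed the scaling, the probe sets tested, a filter on low values, the variance model, the arrays fitted and a replicate block. Under the filter Ffar3 was not kept. Scans and quantitative PCR were not used. Figures were drawn with Python 3.11.15 and matplotlib 3.10.9.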

Additional observations from a re-analysis of the deposited data

Results flagged for a closer look

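All results here were taken up because the change with age differed between depots in the limma test of that difference, given as the bone marrow change minus the epididymal change on the log2 scale. From 6 to 14 months the differences were 3.04 for Hcar2, 1.44 for Ffar4, 1.40 for Sucnr1 and 1.23 for Hcar1. In these 4 genes the epididymal arrays fell and the bone marrow change did not pass the test, although the fall of Hcar2 there did with 1 array left out. From 14 to 18 months they were -3.93 for Hcar2, -1.30 for Ffar4, -1.11 for Hcar1, -0.99 for Gpr84, -0.79 for Sucnr1 and -0.74 for Ffar2. For Hcar2 the direction itself was opposite, a fall of 1.72 in bone marrow beside a rise of 2.22 in epididymal adipocytes. From 6 to 18 months they were -0.90 for Hcar2 and -0.71 for Ffar2, and both calls were lost with arrays scaled to equal ribosomal protein genes and without any 1 of several arrays. Those of Gpr84 and Sucnr1 from 14 to 18 months were also lost without any 1 of several arrays. Bone marrow values of Hcar1, Ffar4 and Sucnr1 lay near the background gauge.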

How the results depend on the processing

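No called value of a receptor changed direction under any setting run. Of 954 checks of called receptor results with 1 array left out, 919 kept the call and 35 lost it, and of 507 checks under the other settings 489 kept it and 18 lost it. Ffar3 was left out by the filter on low values. Equal ribosomal protein genes moved the median probe set by -0.75 between depots and by -0.26 from 6 to 14 months in epididymal adipocytes, and median centring moved it by 0.18 from 6 to 18 months there. Causes of lost calls were not tested. Signal near background limits Sucnr1, Hcar1 and Ffar4 in bone marrow, Gpr84 in epididymal adipocytes and Ffar3 throughout. Arrays of bone marrow at 6 months varied more (median SD of a probe set 0.22) than those of other groups (0.097 to 0.14), and the model shares 1 error between them.

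The larger moves in counts of receptors were as follows, and smaller ones are not all listed. Among the smaller ones, the count of 6 receptors with a lower bone marrow change from 14 to 18 months also fell under some of these settings, through Gpr84 or Sucnr1. Equal ribosomal protein genes left 1 receptor higher in bone marrow at 18 months, 0 rising from 14 to 18 months in bone marrow, 0 rising from 6 to 18 months in epididymal adipocytes and 0 with a lower bone marrow change from 6 to 18 months. The compared groups alone gave 0 falling from 6 to 14 months and 0 rising from 14 to 18 months in bone marrow, and 1 (Ffar3) falling from 14 to 18 months in epididymal adipocytes. Ffar2 was also not called from 6 to 18 months in epididymal adipocytes, leaving 0 receptors that rose, under repeated quantile normalization, with all probe sets tested, in the unmoderated analysis of variance and with an intensity trend and robust prior. The unmoderated analysis left 1 receptor with a lower bone marrow change from 6 to 18 months.

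Over the 6 pathway lists, equal ribosomal protein genes gave 5 falling from 6 to 14 months in bone marrow (main 9), 5 rising and 5 falling from 6 to 18 months there (main 3 and 10), 7 rising and 34 falling from 6 to 14 months in epididymal adipocytes (main 15 and 20) and 2 rising from 6 to 18 months there (main 4). Median centring gave 6 falling from 6 to 18 months in bone marrow and 15 rising from 6 to 18 months in epididymal adipocytes. The compared groups alone gave 0 rising and 2 falling from 6 to 14 months in bone marrow, 0 rising and 1 falling from 6 to 18 months there, and 11 rising from 6 to 18 months in epididymal adipocytes.

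Among differences that were not called, Ffar3 changed sign between depots at 18 months (-0.14 with repeated quantiles, -0.16 with median centring, -0.71 with equal ribosomal protein genes), from 6 to 14 months in epididymal adipocytes (-0.0064, -0.073 and -0.26 in that order) and in its difference of changes from 14 to 18 months (-0.0094 with repeated quantiles, -0.059 with median centring). With equal ribosomal protein genes the bone marrow change from 6 to 18 months was 0.0015 for Hcar1 and 0.0089 for Ffar3. From 6 to 18 months in epididymal adipocytes Gpr84 was 0.19 with repeated quantiles and 0.18 with median centring, and Ffar4 was 0.17 with median centring, which also put the Hcar1 difference of changes from 6 to 18 months at -0.015.

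Leaving out each array in turn gave 1 to 2 receptors falling from 6 to 14 months in bone marrow, 0 to 1 rising from 14 to 18 months there, 0 to 1 rising and 1 to 2 falling from 6 to 18 months in epididymal adipocytes, 0 to 1 falling from 14 to 18 months there, and 0 to 2 with a lower bone marrow change from 6 to 18 months. Bone marrow replicate 3 at 6 months, the array farthest from its group for Ffar3, set each of the higher counts of falling receptors. The added call from 6 to 14 months in bone marrow was that of Hcar2 (limma adjusted p = 0.0397), and the added calls in epididymal adipocytes were those of Ffar3. The Hcar2 difference of changes from 6 to 18 months was not called without bone marrow replicate 1 or epididymal replicate 2 or 3 at 6 months, or without bone marrow replicate 1 or 3 or epididymal replicate 1 or 2 at 18 months (adjusted p 0.0524 to 0.0721). That of Ffar2 was not called without epididymal replicate 1 or 3 at 6 months, or without bone marrow replicate 1 or epididymal replicate 1 or 2 at 18 months (0.0540 to 0.0702). From 14 to 18 months that of Gpr84 was lost without bone marrow replicate 1 or 3 or epididymal replicate 1 or 2 at 14 months, or bone marrow replicate 1 or 3 or epididymal replicate 2 at 18 months (0.0576 to 0.0889), and that of Sucnr1 without bone marrow replicate 3 or epididymal replicate 2 at 14 months, or bone marrow replicate 2 or 3 or any epididymal array at 18 months (0.0504 to 0.101). Counts over the pathway lists ran from 4 to 14 rising and 4 to 12 falling from 6 to 14 months in bone marrow (lowest without replicate 3 at 14 months), 1 to 6 rising and 6 to 12 falling from 6 to 18 months there, 10 to 21 falling from 6 to 14 months in epididymal adipocytes (10 without replicate 1 at 14 months), and 2 to 8 rising from 6 to 18 months there.

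With single arrays left out, uncalled values that changed sign ran over these ranges. In bone marrow, from 6 to 14 months Ffar3 ran from -0.17 to 0.23 and Sucnr1 from -0.097 to 0.16, from 6 to 18 months Ffar3 from -0.38 to 0.021, Ffar4 from -0.071 to 0.30 and Hcar1 from -0.39 to 0.10, and from 14 to 18 months Hcar1 from -0.22 to 0.27. In epididymal adipocytes, from 6 to 14 months Ffar3 ran from -0.12 to 0.094 and Gpr84 from -0.24 to 0.11, from 6 to 18 months Ffar4 from -0.073 to 0.085 and Gpr84 from -0.16 to 0.16, and from 14 to 18 months Gpr84 from -0.083 to 0.23. Between depots Ffar3 ran from -0.37 to 0.031 at 6 months and from -0.031 to 0.096 at 18 months. The differences of changes from 6 to 14 months ran from -0.12 to 0.16 for Ffar2 and from -0.17 to 0.23 for Ffar3, and those from 6 to 18 months from -0.0088 to 0.39 for Ffar3, -0.061 to 0.31 for Ffar4 and -0.15 to 0.35 for Hcar1.

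The labels do not say whether arrays of the same replicate number in the 2 depots came from the same mice. Deviations of same-numbered arrays of the depots correlated between -0.14 and 0.15, and those of differently numbered arrays between -0.16 and 0.15. With 3 arrays in a group this can neither show nor exclude a pairing. A replicate block left the count of receptors called in each comparison as it was (2 higher and 4 lower between depots over the ages). A block of the 9 pairs of age and number, chosen after seeing the data, left 1 receptor, Hcar2, with a lower bone marrow change from 6 to 18 months, where Ffar2 had an adjusted p of 0.0721.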
